A study of Mus musculus with 8 samples.

Results

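The genes described here encode the contractile and calcium-handling machinery of skeletal muscle. They are 42 of the 16119 genes listed in a table of normalized counts from mouse thyroid organoids, thyroid tissue and lung tissue. They were chosen by symbol, in capitals as the table writes them, and all 42 were listed and tested. Of these, 14 are typical of fast fibres, 7 of slow fibres, and 21 are used by both fibre types or were not assigned to one.

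The study asked how thyroid follicular cell organoids (TFCOs), three-dimensional cultures grown from dissociated thyroid, compare with the gland, with lung as unrelated tissue. All 8 libraries came from untreated wild-type C57BL/6 mice. The TFCO lines, mThy14 and mThy16, were derived from female mice, cells of a single gland being plated at a time, and were sequenced at early and again at late passage in a medium with R-spondin, A83-01, forskolin, EGF and FGF10, beside 2 thyroid tissues and 2 lung tissues, which gives 4 groups of 2 libraries. Each TFCO group therefore held 1 library from each of the same 2 lines, and nothing in the labels says whether the tissues of a group came from separate animals, so p-values measure the spread between these samples.

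Muscle fibres contract when calcium, released from the sarcoplasmic reticulum through RYR1 after the voltage sensor CACNA1S has moved, binds troponin C and frees actin for myosin. Fast and slow fibres build the same filaments from different isoforms of myosin, troponin and the calcium-handling proteins, each encoded by its own gene. Slow fibres share several of their isoforms, including MYH7, MYL2, MYL3 and TNNC1, with the heart. The thyroid lies against the strap muscles of the neck and on the trachea.

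Between 9755081 and 16904865 reads per library fell on genes. The thyroid markers matched the labels: TG, the precursor of thyroid hormone, took 12% and 17.2% of all normalized counts in the 2 thyroid tissues, 0.0787% to 0.922% in TFCOs and at most 0.00231% in lung. The libraries fell into 2 sets that cut across the groups. Thyroid tissue 2 and the lungs lacked any count for 44 genes that reached 50 in each of the other 5 libraries, the reverse held for 16 genes, and any other split gave at most 4. None of the muscle genes was among them. TFCOs share a set with thyroid tissue 1 alone, and the lungs share one with thyroid tissue 2, so set and tissue cannot be told apart between TFCOs and lung.

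The muscle genes were a large component of the thyroid tissues and a small one elsewhere. Together they took 0.891% of the counts of thyroid tissue 1 and 2.46% of those of thyroid tissue 2. In the 4 TFCO libraries their share was between 0.0445% and 0.0692%, and in the lungs it was 0.0427% and 0.0793%. The summed normalized counts of the 14 fast genes were 60297 and 176120 in the thyroid tissues, against 2442 and 3873 for the 7 slow genes. Of the slow sums, MYBPC1 alone held 929 and 3799. The 4 slow genes shared with the heart summed to 1445 in thyroid tissue 1 and 24.0 in thyroid tissue 2. In bulk RNA, fewer cells of a type and less RNA per cell cannot be told apart.

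**Figure D1:**
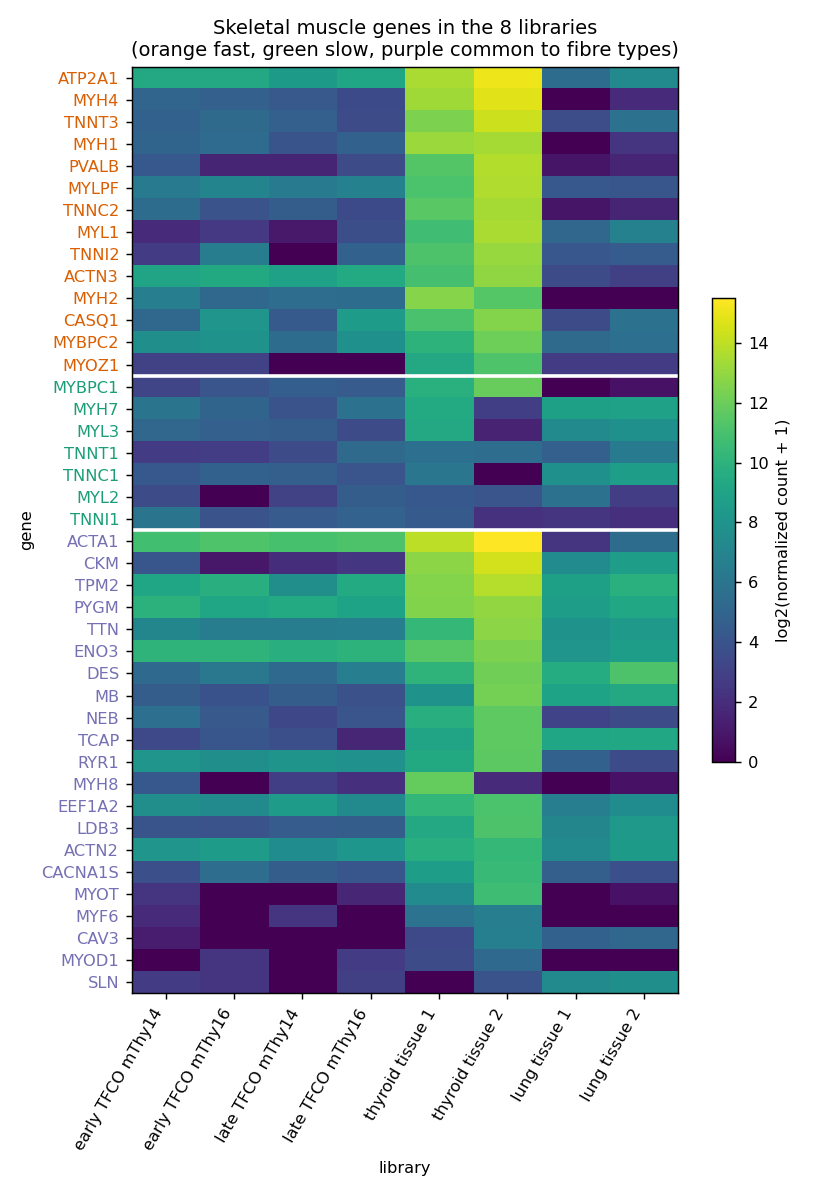
Heat map of log2(normalized count + 1) for the 42 muscle genes (rows, ordered within fast, slow and common genes by their mean in thyroid tissue) in the 8 libraries (columns). Fast genes are bright in both thyroid tissues, while of the slow genes only MYBPC1 is. Genes such as ACTA1, ENO3, PYGM, TPM2, ACTN3 and ATP2A1 stay visible in TFCOs.

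Several of these genes have close relatives, which bears on how reads are assigned to them. MYH4, the heavy chain of the fastest fibres, lies at chr11:67238029-67260446 on the plus strand of GRCm38, in 1 cluster with MYH1, MYH2, MYH8, MYH13 and MYH3, and its coding sequence was identical to that of MYH1 at 90.3%, of MYH2 at 88.2%, of MYH8 at 88.1%, of MYH3 at 80.8% and of MYH13 at 79.7% of aligned positions. MYH7, at chr14:54970684-54994626 on the minus strand, was identical to the atrial heavy chain MYH6 at 91.8%. Of all 50-base stretches of the transcript, 18.9% in MYH4, 26.7% in MYH1, 26.9% in MYH2, 21.4% in MYH8 and 22.2% in MYH7 also occurred in the transcript of another gene. MYL1 shared 23.4% with a pseudogene, and every other member at most 2.22%. The following 60 coding bases of MYH4 (exon 14, chr11:67246386-67246445, plus strand, GRCm38, GENCODE M21) show the extreme case for a read of that length. They were chosen as the window within 1 exon with the fewest summed differences from MYH1, MYH2, MYH8, MYH13, MYH3 and MYH7. Over its whole transcript, MYH4 shared 10.64% of 50-base stretches with MYH1 and 0.12% with MYH7. Capitals mark bases that differ from MYH4, and the windows of MYH1 (chr11:67207435-67207494, plus strand) and MYH7 (chr14:54988401-54988460, minus strand) follow.
MYH4: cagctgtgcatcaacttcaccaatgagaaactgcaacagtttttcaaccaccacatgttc
MYH1: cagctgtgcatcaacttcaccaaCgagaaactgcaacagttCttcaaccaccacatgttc
MYH7: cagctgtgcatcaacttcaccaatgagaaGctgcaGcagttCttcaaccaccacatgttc
The windows of MYH2, MYH8 and MYH13 held 0 differences from MYH4, and that of MYH3 held 1.

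Skeletal alpha-actin, ACTA1 (chr8:123891769-123894751, minus strand), is also close to the cardiac actin ACTC1 (86.3% of coding positions), to the smooth muscle actin ACTG2 (85.2%) and to the actin ACTB of all cells (85.2%). How reads that match several genes were counted is not given in the sources used here, so the split of counts among heavy chains and among actins is uncertain.

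Thyroid tissue was compared with TFCOs first, as log2(normalized count + 1) with limma, the 2 passages of each line being averaged first. Of the 42 muscle genes, 24 were higher in thyroid tissue at an adjusted p under 0.05 and none was lower, whereas 3.05% of the 14703 genes tested were higher and 0.599% lower. Their median log2 difference was 5.13, beside -0.05 over all genes tested. In 35 of the 42 both thyroid tissues lay above all 4 TFCO libraries, as did 17.3% of all genes tested, and in none did they lie below, as they did in 17.2%. Without thyroid tissue 2, 14 muscle genes passed the test, 11 of them among the 24, and MYH7, MYH8 and MYL3 were added. Without thyroid tissue 1, which shares its set with the TFCOs, 32 passed, of 27.7% of all genes, and the calls added included MYH7, MYL3, TNNI1 and TNNC1, which were lower in thyroid tissue 2 than in TFCOs. MYH7 and MYL3 were called in opposite directions with each thyroid tissue alone.

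By fibre type the calls were uneven. Of the 14 fast genes, 12 were higher in thyroid tissue, and CASQ1 (adjusted p = 0.0748) and ACTN3 (adjusted p = 0.0877) did not pass the test. Their median log2 difference was 8.28, that of the 21 common genes 4.75 with 11 past the test, and that of the 7 slow genes 1.00 with 1 past the test, MYBPC1. Against thyroid tissue 1 alone, without a test, the medians were 7.41 for fast, 3.61 for common and 2.05 for slow genes. Against thyroid tissue 2 alone they were 8.82, 5.55 and -2.28.

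**Figure D2:**
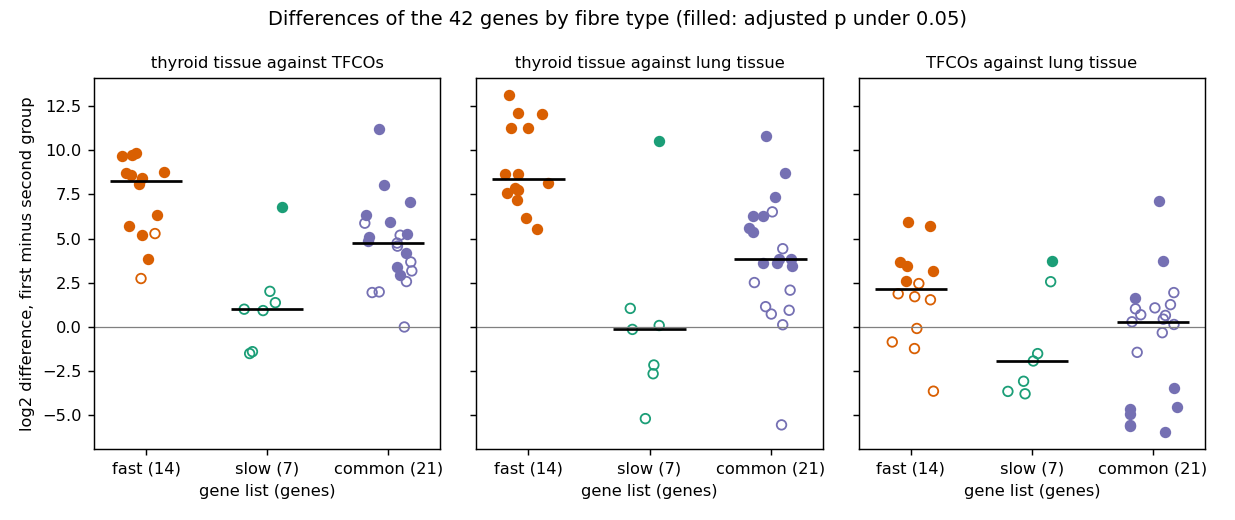
Log2 difference of the 42 genes (points) in 3 comparisons, first minus second group, split into fast, slow and common genes, with the median as a black line and genes at an adjusted p under 0.05 filled. Fast genes sit above 0 in both comparisons of thyroid tissue, with medians of 8.28 and 8.40, whereas 6 of the 7 slow genes are open symbols in each comparison.

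Myosin heavy chains are the motors of the thick filament, and per kilobase of transcript MYH4 ranked 12 and 11 of the 42 genes in thyroid tissues 1 and 2, where ACTA1 ranked 1 and TNNT3 ranked 2. MYH4 was at 10009 and 29032 normalized counts in the thyroid tissues and at 32.3, 25.7, 18.7 and 10.1 in TFCOs, given here and below as mThy14 and mThy16 at early and then at late passage. The groups were far apart, with a log2 difference of 9.66 (SE 0.89, adjusted p = 0.00482, limma). MYH1, the chain of fibres between the fastest and the oxidative fast type, was at 8988 and 10982 in thyroid tissue and at 30.9, 42.6, 15.6 and 26.8 in TFCOs, a log2 difference of 8.45 (SE 0.88, adjusted p = 0.00688). MYH2, the chain of the more oxidative fast fibres, was the 1 fast gene higher in thyroid tissue 1 (6427) than in thyroid tissue 2 (2758), with TFCOs at 97.0, 35.7, 44.8 and 43.6 (log2 difference 6.34, SE 0.77, adjusted p = 0.00954).

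The light chains, which sit on the neck of the myosin head, followed the fast heavy chains. The regulatory light chain MYLPF was at 2247 and 12791 in thyroid tissue and at 82.9, 129, 87.4 and 111 in TFCOs (log2 difference 5.72, SE 0.80, adjusted p = 0.0142). The essential light chain MYL1 was at 1727 and 11829.7 in thyroid tissue and at 2.81, 4.95, 1.04 and 12.3 in TFCOs (log2 difference 9.83, SE 1.12, adjusted p = 0.00781). For both genes the lowest thyroid value was many times the highest TFCO value, and thyroid tissue 2 was well above thyroid tissue 1. MYBPC2, the fast myosin binding protein C, was at 1017 and 4401 in thyroid tissue and kept 205, 242, 43.7 and 220.2 in TFCOs, a smaller log2 difference of 3.83 (SE 0.78, adjusted p = 0.0480).

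The fast troponins, which place the calcium switch on the thin filament, were alike in their pattern. TNNT3, which anchors the complex to tropomyosin, was at 5493 and 20016 in thyroid tissue and at 26.7, 40.6, 26.0 and 11.2 in TFCOs (log2 difference 8.72, SE 0.88, adjusted p = 0.00592). TNNC2, the calcium-binding subunit, was at 2954 and 10946 in thyroid tissue and at 43.6, 14.9, 22.9 and 10.1 in TFCOs (log2 difference 8.10, SE 0.92, adjusted p = 0.00781). The inhibitory subunit TNNI2 varied more among TFCOs, at 5.62, 93.1, 0 and 26.8, with 2337 and 8796 in thyroid tissue (log2 difference 8.63, SE 1.38, adjusted p = 0.0215). Both mThy16 libraries were above both mThy14 libraries, and all were far below thyroid tissue.

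Calcium-handling genes of fast fibres differed in how much of their level was found in TFCOs. PVALB, a soluble calcium buffer that speeds relaxation, was at 2592 and 13207 in thyroid tissue and at 18.3, 1.98, 2.08 and 11.2 in TFCOs (log2 difference 9.75, SE 0.98, adjusted p = 0.00592). ATP2A1, the fast calcium pump of the sarcoplasmic reticulum, was at 11779.9 and 34901 in thyroid tissue and still at 652, 661, 345 and 584 in TFCOs (log2 difference 5.22, adjusted p = 0.0142). CASQ1, the calcium store protein of that reticulum, was at 2098 and 6248 in thyroid tissue and split by line in TFCOs. It was at 35.1 and 19.8 in early and late mThy14 but at 267 and 371 in early and late mThy16, and its log2 difference of 5.28 (SE 1.26) did not pass the test.

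Of the structural proteins of fast fibres, MYOZ1 and ACTN3 gave unlike levels in TFCOs. MYOZ1, a calcineurin-binding protein of the Z-disc, was at 646 and 2428 in thyroid tissue and at 7.03, 6.93, 0 and 0 in TFCOs (log2 difference 8.79, SE 0.94, adjusted p = 0.00734). ACTN3, the alpha-actinin of fast fibres, was at 1983 and 7789 in thyroid tissue and at 533, 690.2, 463 and 706 in TFCOs, 23.4% to 35.6% of its level in thyroid tissue 1. The non-muscle alpha-actinins ACTN1 and ACTN4 were abundant in the same TFCO libraries, at 9929.6 to 16548 and at 10724 to 17031. Their part in the ACTN3 counts was not tested, and ACTN3 shared none of its coding 50-base stretches with them.

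Of the slow genes, 1 passed the test. MYBPC1, the slow myosin binding protein C, a protein that fast fibres also contain, was at 929 and 3799 in thyroid tissue and at 8.43, 15.8, 23.9 and 21.2 in TFCOs (log2 difference 6.77, SE 0.96, adjusted p = 0.0151). It was higher in thyroid tissue 2 than in thyroid tissue 1 by 2.03 on the log2 scale, beside a median of 1.90 for the fast genes, whereas the other 6 slow genes were lower in thyroid tissue 2.

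The slow heavy and light chains divided the 2 thyroid tissues. MYH7, the heavy chain of slow fibres and of the heart, was at 703 in thyroid tissue 1 and 6.45 in thyroid tissue 2, with TFCOs at 60.4, 30.7, 14.6 and 55.9 (log2 difference 1.00, SE 1.83, adjusted p = 0.772). MYL3, its essential light chain, was at 655 and 1.84, with TFCOs at 33.7, 25.7, 22.9 and 11.2 (log2 difference 0.92, SE 2.20, adjusted p = 0.827). For both genes thyroid tissue 2 lay below every TFCO library and thyroid tissue 1 above them all. The slow and cardiac troponin C, TNNC1, showed the same order, at 67.5 and 0 in thyroid tissue and 18.3, 26.7, 25.0 and 15.7 in TFCOs (log2 difference -1.41, SE 1.80, adjusted p = 0.670).

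The other 3 slow genes were under 50 normalized counts in both thyroid tissues. TNNT1 was at 49.0 and 46.1 in thyroid tissue, above all TFCO values of 5.62, 5.94, 10.4 and 39.1 (log2 difference 2.01, SE 0.92, adjusted p = 0.300). MYL2, the slow and ventricular regulatory light chain, was at 18.5 and 15.7, within the TFCO values of 11.2, 0, 7.29 and 22.4 (adjusted p = 0.538). TNNI1 was at 19.6 and 3.69, with TFCOs at 60.4, 14.9, 20.8 and 27.9 (adjusted p = 0.453). Their fast counterparts were at 2247 to 20016 normalized counts in thyroid tissue.

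Among genes common to fibre types, CKM had the largest difference of all 42. This muscle creatine kinase, which buffers ATP, was at 7235 and 21984 in thyroid tissue and at 16.9, 0.990, 3.12 and 4.47 in TFCOs (log2 difference 11.21, SE 0.76, adjusted p = 0.00151). NEB, the ruler protein of the thin filament, was at 875 and 3184 in thyroid tissue against 49.2, 18.8, 9.37 and 15.7 in TFCOs, and TTN, the spring of the sarcomere, at 1264 and 7243 against 138, 92.1, 89.5 and 98.4. Both passed the test (adjusted p = 0.0114 and 0.0203). MYOT, a Z-disc protein, was at 177 and 1611 in thyroid tissue and between 0 and 4.22 in TFCOs (log2 difference 8.05, SE 1.25, adjusted p = 0.0192).

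Other framework genes gave intermediate differences. TCAP, the titin cap, was at 531 and 3224 in thyroid tissue against 2.24 to 16.8 in TFCOs. LDB3, a further Z-disc protein, was at 639 and 2274 against 14.9 to 22.4. DES, the intermediate filament of all muscle, was at 1088 and 4443 against 37.9 to 97.3. These genes passed the test, as did the voltage sensor CACNA1S (408 and 1419.8 against 12.6 to 45.6), the glycogen phosphorylase PYGM (6088 and 8075 against 512 to 985), the tropomyosin TPM2 (6270.4 and 14228 against 204 to 838) and the elongation factor EEF1A2 (1246 and 2186 against 165 to 382).

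A further group kept a sizeable level in TFCOs and did not pass the test. ACTA1 was at 15925 and 46148 in thyroid tissue and at 1796, 2442, 2032 and 2278 in TFCOs, 11.3% to 15.3% of thyroid tissue 1 (adjusted p = 0.102). ENO3, muscle enolase, was at 2892 and 5491 against 861 to 1093, and the calcium release channel RYR1 was at 686 and 3039 against 274, 212, 259 and 233. ACTN2, the alpha-actinin of every fibre type, was at 824 and 1285 against 184 to 373. In each of these 4 genes both thyroid tissues exceeded every TFCO library, although limma did not call the difference. The relatives of ACTA1 and ENO3 that all cells use were abundant in TFCOs, ACTB at 16886 to 23381 and ENO1 at 7045 to 9914. ACTA1 shared 2.0% of its 50-base stretches with ACTB, and ENO3 shared 0% with ENO1. The part of these relatives in the counts was not tested.

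Oxygen storage and the rest of the common genes were more uneven. Myoglobin, MB, was at 241 in thyroid tissue 1 and 4907 in thyroid tissue 2, a 20.4-fold difference between the tissues, with TFCOs at 13.4 to 22.9 (adjusted p = 0.0540). CAV3, the muscle caveolin, was at 9.80 and 102 in thyroid tissue and at 0 in 3 of the 4 TFCO libraries, with 1.41 in early mThy14. SLN, a small inhibitor of the calcium pump, was at 0 and 14.8 in thyroid tissue and at most 6.71 in TFCOs. The myogenic factors were detected at low level, MYF6 at 58.8 and 97.7 in thyroid tissue and 2.81, 0, 4.16 and 0 in TFCOs, and MYOD1 at 10.9 and 37.8 against 0, 3.96, 0 and 5.59. Neither passed the test (adjusted p = 0.0539 and 0.233).

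The 2 thyroid tissues differed in amount and in kind. On the log2 scale thyroid tissue 2 exceeded thyroid tissue 1 by a median of 1.75 over the muscle genes, with 34 of 42 above 0, beside -0.07 over all genes tested. Of the 14 fast genes 13 were higher in thyroid tissue 2, as were 20 of the 21 common genes, but only 1 of the 7 slow genes. The exception among the common genes was MYH8, the perinatal heavy chain, at 3696 in thyroid tissue 1 and 2.77 in thyroid tissue 2, with TFCOs at 18.3, 0, 6.25 and 3.35. There is 1 library of each tissue, and the tissues lie in different library sets, so these values carry no test, and tissue, set and amount of muscle cannot be told apart.

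**Figure D3:**
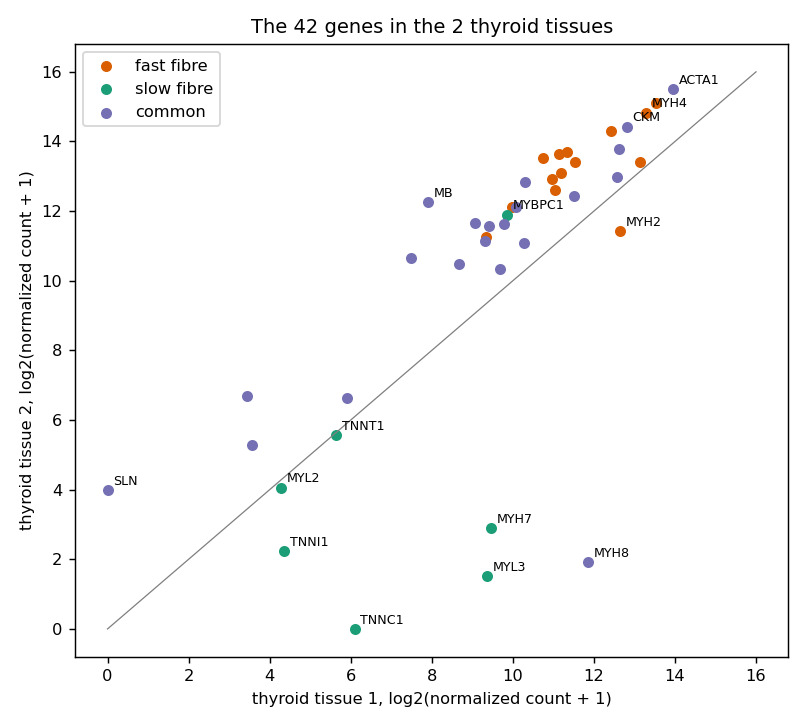
Log2(normalized count + 1) of the 42 genes in thyroid tissue 1 (horizontal) and thyroid tissue 2 (vertical), coloured by fibre type, with the line of equal values in grey. Fast genes lie above the line except MYH2, whereas MYH7, MYL3, TNNC1 and MYH8 lie far below it.

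The heavy chains showed this divide most fully. To compare levels between genes, normalized counts were divided by transcript length in kilobases and given as percent of 8 heavy chain genes. In thyroid tissue 2, MYH4 made up 68.1%, MYH1 25.5% and MYH2 6.39%, and the other 5 chains together 0.07%. In thyroid tissue 1, MYH4 made up 28.8%, MYH1 25.6% and MYH2 18.3%, and the other 5 took 27.4%. That remainder was MYH8 (10.4%), MYH13 (7.59%), an extraocular and laryngeal chain, MYH3 (5.04%), the embryonic chain, MYH6 (2.43%) and MYH7 (1.95%). The thyroid tissues lie in different library sets, and how reads matching several chains were counted is not given. Whether these limits bear on the remainder was not tested.

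The actins differed between the thyroid tissues too. As percent of the 4 muscle actins by normalized counts, ACTA1 made up 59.6% in thyroid tissue 1 and 98.4% in thyroid tissue 2, ACTG2 18.8% and 0.03%, and ACTC1 12.9% and 0.42%. In normalized counts ACTC1 was at 3436 and 199, and ACTG2 at 5019.6 and 13.8. TFCOs held ACTG2 at 3074 to 3962 and ACTC1 at 831 to 1218, with the 4 actins in nearly the same proportions in each, ACTA1 at 28.2% to 32.7% and ACTG2 at 46.5% to 51.9%. Thyroid tissue 1 and the TFCOs lie in 1 library set, and whether reads were assigned differently in the 2 sets was not tested.

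**Figure D4:**
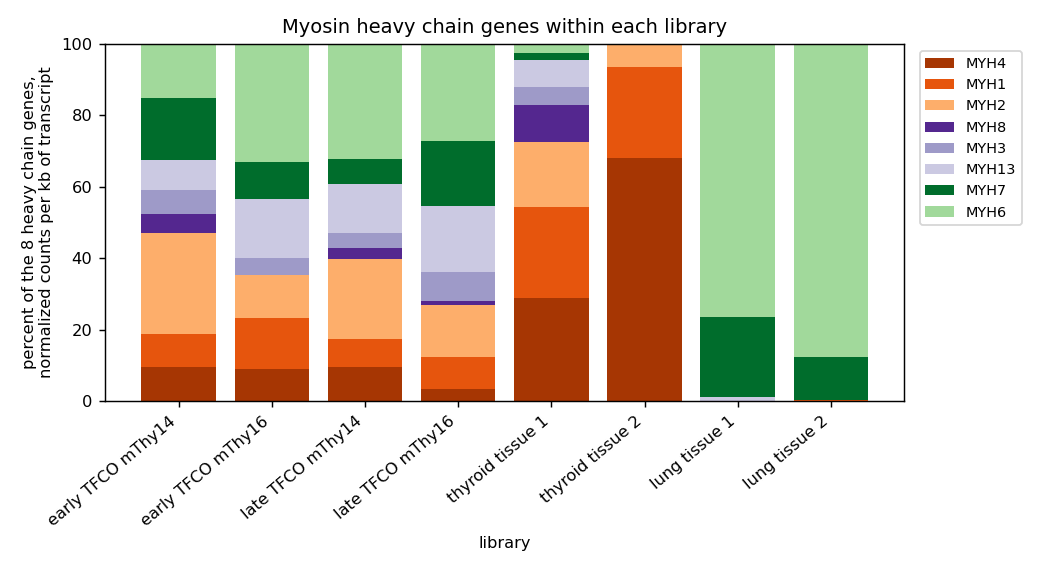
Share of 8 myosin heavy chain genes in each library (stacked bars from 0 to 100 percent, normalized counts per kilobase of transcript). Thyroid tissue 2 holds the 3 adult fast chains at 99.9%, thyroid tissue 1 at 72.6%, and the lungs hold almost only MYH6 and MYH7. The TFCO bars rest on sums of 200 to 342 normalized counts.

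Fast and slow isoforms were then set against each other in pairs. Over 7 pairs of the genes, the slow partners made up 5.50% of the fast and slow sum per kilobase in thyroid tissue 1 and 1.31% in thyroid tissue 2, a mean of 3.40%. Without the myosin binding protein C pair and the heavy chains the shares were 4.96% and 0.096%. In TFCOs the slow share was 33.7% and 17.4% in the early and 34.9% and 32.6% in the late libraries of mThy14 and mThy16. In lung it was 86.7% and 81.5%. The order thyroid tissue, TFCOs, lung was thus free of overlap between groups, but the fast sums behind it were 21364 and 81574 normalized counts per kilobase in thyroid tissue and 197 to 437 in TFCOs.

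Single pairs in thyroid tissue mostly held under 3% of slow partner. The slow share was 0.858% and 0.129% for MYL2 beside MYLPF, 0.900% and 0.234% for TNNT1 beside TNNT3, 0.557% and 0.028% for TNNI1 beside TNNI2, 2.17% and 0% for TNNC1 beside TNNC2, and 2.62% and 0.015% for MYH7 beside the 3 fast heavy chains. MYL3 beside MYL1 gave 30.5% in thyroid tissue 1 and 0.018% in thyroid tissue 2. For MYBPC1 beside MYBPC2 the slow share was 46.8% and 45.4%, a nearly even balance in both tissues. Calsequestrin (CASQ2 beside CASQ1) gave 0.743% and 1.23%, and MYOZ2 beside MYOZ1 4.73% and 5.74%, though these slow partners are not among the 42 genes.

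**Figure D5:**
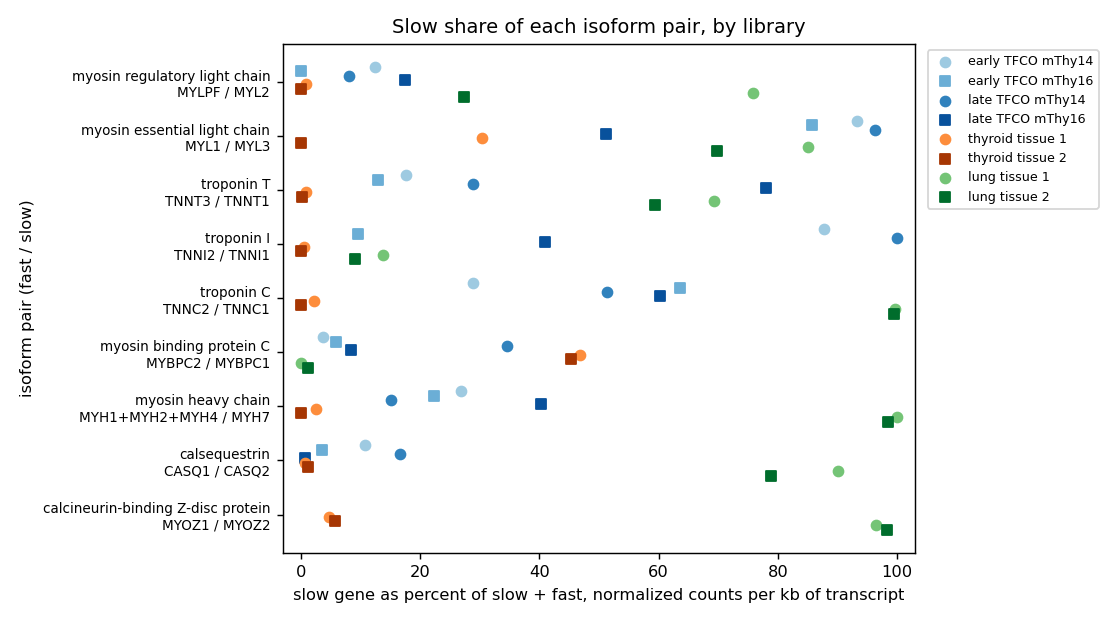
Slow partner as percent of slow plus fast (normalized counts per kilobase of transcript) in 9 isoform pairs for each library with 10 or more normalized counts in the pair. Thyroid tissues (orange) lie near 0 except for MYL1 with MYL3 in thyroid tissue 1 and for MYBPC2 with MYBPC1, and lung tissues (green) lie to the right in most pairs but not for troponin I or myosin binding protein C.

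Thyroid tissue was also compared with lung. Here 27 muscle genes were higher in thyroid tissue and none was lower, beside 2.89% of all genes higher and 3.16% lower. The median log2 difference was 5.56 (5.44 with the 3 genes at 0 in both lungs set at a floor of 3 reads per library), and 0.03 over all genes tested. All 14 fast genes passed (median 8.40), 12 of the 21 common genes and again MYBPC1 alone of the slow genes. Thyroid tissue 2, which shares its set with the lungs, exceeded their mean by a median of 9.49 for fast, 4.09 for common and -0.26 for slow genes. With the thyroid and lung libraries fitted alone, 17 muscle genes passed, beside 1.88% of all genes. With either lung tissue left out, fewer muscle genes and a smaller share of all genes passed. Those muscle genes were all among the 27.

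The fast heavy chains were at or close to 0 in lung. MYH4 was at 0 and 2.70, MYH1 at 0 and 4.04 and MYH2 at 0 in both, so that MYH2 was at least 2030-fold higher in thyroid tissue. The log2 difference was 13.11 (SE 0.89, adjusted p = 0.00111, limma) for MYH4 and 12.11 (SE 0.88, adjusted p = 0.00153) for MYH1. PVALB and TNNC2 were each at 0.838 and 2.02 (log2 differences 11.28, SE 0.98, and 11.24, SE 0.92, adjusted p = 0.00292 and 0.00227). Other fast genes were low but present, such as TNNT3 at 11.7 and 53.9, MYL1 at 33.5 and 111, ATP2A1 at 44.4 and 171 and ACTN3 at 10.9 and 6.74. MYBPC1 was at 0 and 0.674 in lung, which is 1 read in all.

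Skeletal actin separated the tissues more than it separated thyroid tissue from TFCOs. ACTA1 was at 4.19 and 44.5 in lung (log2 difference 10.79, SE 0.98, adjusted p = 0.00348). RYR1, at 27.6 and 10.8 in lung, and CASQ1, at 10.9 and 53.3, also passed here (adjusted p = 0.0106 and 0.0246). MYF6 and MYOD1 were at 0 in both lungs, and thyroid tissue was at least 34.5-fold and at least 10.7-fold higher, against a floor of 3 reads per library. MYF6 passed the test (adjusted p = 0.0246) while MYOD1 did not (adjusted p = 0.0843).

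Of the 7 slow genes, MYH7, MYL3 and TNNC1 were above 100 normalized counts in both lungs, and the other 4 were under 100 in both. MYH7 was at 449 and 462 in lung, above thyroid tissue 2 and below thyroid tissue 1 (log2 difference -2.66, SE 1.83, adjusted p = 0.420). TNNC1 was at 219 and 417, above both thyroid tissues (log2 difference -5.20, SE 1.80, adjusted p = 0.144), and MYL3 at 166 and 222 (log2 difference -2.16, SE 2.20, adjusted p = 0.574). TCAP (559.5 and 627), MB (498 and 646), DES (783 and 2255) and SLN (163 and 209.6) were other members at sizeable levels in lung, and none of them differed from thyroid tissue past the test. MYL2, the ventricular light chain, was at 55.3 and 6.07, TNNI1 at 4.19 and 3.37 and TNNT1 at 26.0 and 77.5.

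Heart muscle genes were read beside these values. Of a list of 15 cardiac genes, 13 were tested, of which 6 were lower in thyroid tissue than in lung and none higher. Of all genes tested 3.16% were lower and 2.89% higher. None of the cardiac genes differed between thyroid tissue and TFCOs past the test, where 3.05% of all genes were higher and 0.599% lower. Their summed normalized counts were 6239 and 9530 in lung, 1303 and 110.6 in thyroid tissue and 400.2 to 564 in TFCOs. The atrial heavy chain MYH6 was at 1504 and 3293 in lung, 858 and 4.61 in thyroid tissue and 52.0 to 98.0 in TFCOs. The atrial light chain MYL7 was at 1209 and 1605 in lung and at 64.2 and 2.77 in thyroid tissue, and cardiac troponin T, TNNT2, was at 952 and 1383 against 31.6 and 0.922. NPPA, an atrial hormone gene named after its values were seen, was at 0 in both thyroid tissues. HCN4, a pacemaker channel, went the other way, at 156 and 28.6 in thyroid tissue and at 0.838 and 11.5 in lung, without passing the test. MYBPC3, the cardiac myosin binding protein C, was at 70.8 and 0 in thyroid tissue and at 139.9 and 206 in lung. The part of heart muscle in the slow genes was not tested.

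TFCOs and lung differed in both directions. Of the muscle genes 10 were higher in TFCOs and 7 lower, beside 9.83% and 13.5% of all genes, so that the share called, 17 of 42, stands beside 23.4% in either direction. The median log2 difference was 0.54 (0.36 with genes at 0 in both lungs at their floor or, where TFCOs were near it too, left out), against 0.05 over all genes. With limma voom on whole reads 7 of the muscle genes passed, beside 19.2% of all genes. With either lung tissue left out, fewer muscle genes and a smaller share of all genes passed.

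Those higher in TFCOs were 6 fast genes, MYBPC1, ACTA1, ENO3 and RYR1. ACTA1 at 1796 to 2442 lay far above the lung values (log2 difference 7.11, SE 0.98, adjusted p = 0.00558), and ACTN3 did too (log2 difference 5.94, SE 0.69, adjusted p = 0.00314). The heavy chains MYH4, MYH1 and MYH2 were called at no more than 97.0 normalized counts in any TFCO library. Those lower in TFCOs were CKM, MB, DES, TCAP, LDB3, CAV3 and SLN, where 13.5% of all genes tested were lower too. TCAP had the largest difference among them (log2 difference -5.95, SE 0.84, adjusted p = 0.00617), followed by CKM (log2 difference -5.63, SE 0.76, adjusted p = 0.00520). TFCOs are in another library set than the lungs, so this comparison cannot be separated from that set.

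Late and early TFCOs were compared over both lines, without the line as a term. None of the 42 genes and none of the 14703 genes tested passed the test (0%) with limma, while 166 genes (1.13%) and 1 muscle gene, MYOZ1, had an unadjusted p under 0.05. MYOZ1 was at 7.03 and 6.93 in the early and 0 in both late libraries, where a count of 0 allows up to 3.12 and 3.35 normalized counts. The median log2 difference of the muscle genes, late minus early, was -0.30, beside -0.02 over all genes. By line it was -0.59 in mThy14 and -0.01 in mThy16. In mThy14, 13 of the 14 fast genes were lower at late passage, beside 7687 of the 14703 genes tested. In mThy16, 9 of the 14 were lower, beside 7094 of the 14703. Some fast genes rested on a few reads, such as MYL1 at 2 and 1 and TNNI2 at 4 and 0 in early and late mThy14.

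The partners of the muscle genes were followed in lists of other genes. Of 14 further genes of excitation and calcium release, 1 (TRDN, which ties calsequestrin to the release channel) was higher in thyroid tissue than in TFCOs and 6 were higher than in lung. SRL was at 404 and 2621 and TMEM38A at 291 and 1738 in thyroid tissue, but JPH1, which holds the reticulum to the surface membrane, was at 966 and 939 in thyroid tissue and at 1677, 333, 1351 and 277 in TFCOs. Of 20 further sarcomere genes, 8 passed as higher in thyroid tissue against TFCOs and 5 against lung, with LMOD2 at 894 and 1245 and XIRP2 at 149 and 2475 in thyroid tissue. None of these genes was lower in thyroid tissue past the test.

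Of 11 energy supply genes in the table, 5 passed as higher in thyroid tissue when TFCOs were the reference, and 3 when lung was. The mitochondrial creatine kinase CKMT2 was at 979 and 1566 in thyroid tissue against 7.92 to 51.0 in TFCOs. PGAM2, muscle phosphoglycerate mutase, was at 0 in all TFCOs and in thyroid tissue 1, but at 1921 in thyroid tissue 2 and at 90.5 and 137 in lung, the same divide as the library sets. PHKA1, a phosphorylase kinase subunit, was at 748 and 853 in thyroid tissue and at 346 to 628 in TFCOs.

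Genes of the nerve-muscle contact and of muscle precursors were low. None of 9 neuromuscular junction genes differed between thyroid tissue and TFCOs past the test. Over all genes tested 3.05% were higher and 0.599% lower, so no call in so short a list says little. CHRNB1 was at 505 and 379 in thyroid tissue and 897 to 1858 in TFCOs. RAPSN was at 30.5 and 36.9 and the receptor subunit CHRNA1 at 16.3 and 44.3 in thyroid tissue. Of 10 myogenic and satellite cell factors, 7 were tested and 1, MEF2C, was higher in thyroid tissue (524 and 972) than in TFCOs (7.83 to 25.3). In lung MEF2C was at 431 and 624, and it did not differ from thyroid tissue past the test (adjusted p = 0.656, limma). MSTN, a muscle-made growth inhibitor, was at 90.4 and 114 in thyroid tissue, at 0 and 0.674 in lung and at most 8.91 in TFCOs. Of 9 other myosin, actin, tropomyosin and pump isoforms none passed against TFCOs, with TPM1 at 13915 and 17732, ATP2A2 at 8553 and 3239.8 and TPM3 at 3296 and 2171 in thyroid tissue.

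Markers of other neighbouring tissue were read beside these values. Of 10 smooth muscle genes none differed between thyroid tissue and TFCOs past the test. Over all genes tested 3.05% were higher and 0.599% lower, so no call in so short a list says little. In both thyroid tissues TAGLN, LMOD1 and SYNPO2 lay above all TFCO libraries and CNN1 below them, as did 17.3% and 17.2% of all genes. Of the smooth muscle genes 1, TAGLN, was lower in thyroid tissue (126.3 and 303) than in lung (1248 and 3001), beside 3.16% of all genes. ACTA2 was at 2319 and 525 in thyroid tissue and at 929 and 2624 in lung, and MYH11 at 1206 and 668 against 425 and 1548. Brown fat genes were present in thyroid tissue, UCP1 at 614 and 1246 and CIDEA at 1830.0 and 651, against at most 33.7 and 8.43 in TFCOs, and both passed the test, 2 of the 5 brown fat genes in the table. COX7A1, shared by brown fat and muscle, was at 2.18 and 550.4. Cartilage genes showed no call against TFCOs in 8 genes, with COL9A1 at 148 and 168, CNMD at 84.9 and 150.3 and COL2A1 at 173 and 2.77 in thyroid tissue. Against lung 3 cartilage genes, COL11A1, COL9A1 and CNMD, were higher in thyroid tissue, beside 2.89% of all genes. The part of these tissues in the muscle values was not tested.

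Promoter sequences of the muscle genes were also examined. RefSeq promoters (GRCm38.p6) were matched for 32 of the 42 genes. In the 250 bases before the start, the motif CANNTG, the E-box that myogenic factors bind, occurred on either strand in 81.2% of them (26 genes) and in 66.0% of 27025 promoters, while 3 or more E-boxes occurred in 6.2% (2 genes) and in 12.1%. The motif CATTCC, read on both strands and known as MCAT, occurred in 31.2% (10 genes) and in 12.6%. The genes without an E-box were the fast MYH1, MYH2 and PVALB and the common RYR1, LDB3 and EEF1A2. These counts describe letters only. The windows of fast MYLPF (chr7:127211358-127211607, plus strand), common ACTA1 (chr8:123894776-123895025, minus strand) and slow MYH7 (chr14:54994627-54994876, minus strand) are printed with both motifs in capitals, GGAATG being CATTCC on the other strand.
MYLPF: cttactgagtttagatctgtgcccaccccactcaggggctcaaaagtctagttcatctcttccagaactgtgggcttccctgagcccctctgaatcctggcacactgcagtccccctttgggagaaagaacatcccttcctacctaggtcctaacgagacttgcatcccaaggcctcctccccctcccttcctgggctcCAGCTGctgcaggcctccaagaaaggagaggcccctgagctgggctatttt
ACTA1: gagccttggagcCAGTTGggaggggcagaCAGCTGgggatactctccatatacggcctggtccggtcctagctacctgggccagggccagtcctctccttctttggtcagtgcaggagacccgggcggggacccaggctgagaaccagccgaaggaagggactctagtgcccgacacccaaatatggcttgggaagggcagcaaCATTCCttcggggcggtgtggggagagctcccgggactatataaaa
MYH7: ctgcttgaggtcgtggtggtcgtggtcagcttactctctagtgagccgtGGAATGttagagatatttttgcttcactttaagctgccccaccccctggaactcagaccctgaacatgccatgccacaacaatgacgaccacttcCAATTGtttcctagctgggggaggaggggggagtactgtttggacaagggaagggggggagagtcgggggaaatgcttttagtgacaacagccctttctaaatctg
Both the fast and the slow gene held 1 E-box, and ACTA1 held 2. These promoters were picked for printing and the motif occurs in 66.0% of all promoters, so they cannot compare the fibre types.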

How the data were processed

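The authors deposited 1 table of normalized counts, a signal that is the read count of a gene divided by 1 DESeq2 size factor per library. The methods describe stranded polyA libraries with paired-end reads, the labels an adapted CEL-Seq protocol. The submitters' processing notes name BWA 0.6.2-r126 and the builds hg38 and mm10, and the counter and annotation are not given in the sources used here. All values (100%, tolerance 0.01) were whole multiples of 1 step per library.

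Samples were grouped by title. Log2(normalized count + 1) was fitted with limma 3.58.1 (R 4.3.3, mean-variance trend, two-sided, Benjamini-Hochberg) over 14703 of 16119 genes, those reaching 10 in 2 or more libraries. Differences of weak genes are lowered by the pseudocount of 1. The passages of a line were averaged for comparisons with tissue, and late against early TFCOs used all 8 libraries. An exact permutation test of 2 against 2 libraries cannot give a two-sided p below 0.333, so none was run. Within lines, same-numbered TFCO libraries come from 1 line, and their deviations correlated at 0.477 across genes. Floors of 3 reads cover counting error only.

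Lengths, coordinates and identities come from GENCODE M21 (GRCm38), promoters from RefSeq. The fit was tested on simulated counts. Values in every library were given for members at a mean of 100 or more in thyroid tissue and for MYOD1, MYF6, MYH7 and MYH8, or as ranges in TFCOs, and members below that level were also given values. The 3 highest genes in thyroid tissue were named of each other list, and 3 in lung for heart and smooth muscle. Results of some genes that this rule names are not reported here. SE and adjusted p were given for the 10 largest differences and the pairs; further adjusted p were added after the values were seen. Members and lists were chosen with earlier results of these data known. Alternatives were another pseudocount, filter, scaling, trend, sample choice, replicate block and each library left out.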

Additional observations from a re-analysis of the deposited data

How the results depend on the processing

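Muscle genes called in the comparisons as reported kept their sign under the alternatives run. MYH7 and MYL3, not called there against TFCOs, were called as higher without thyroid tissue 2 and as lower without thyroid tissue 1. The number of muscle genes called stayed within 1.5 times its value except as follows. For thyroid tissue against TFCOs it was 24 and ranged from 14 to 32 when 1 library was left out. For thyroid tissue against lung it was 27, ranged from 11 to 27 with 1 library left out and was 17 with only the groups compared. For TFCOs against lung it was 17, ranged from 4 to 24 with 1 library left out and was 7 with limma voom on the recovered reads, an alternative chosen after seeing the data. The counts over all genes moved more. For thyroid tissue against TFCOs 536 genes were called, 124 with only the groups compared, 914 with the 4 TFCO libraries as separate samples, 220 with voom, and 143 (without thyroid tissue 2) to 4026 (without thyroid tissue 1) with 1 library left out, lung tissues 1 and 2 giving 187 and 184. For thyroid tissue against lung 889 were called, 277 with only the groups compared, and 59 (without lung tissue 1) to 4288 (without thyroid tissue 2), with 69 without lung tissue 2. For TFCOs against lung 3435 were called, 6979 with only the groups compared, 5892 with separate TFCO libraries, and 296 (without lung tissue 2) to 6981 (without thyroid tissue 2), with 372 without lung tissue 1 and 6928 without thyroid tissue 1. For late against early TFCOs 0 were called, and 0 to 2 with 1 library left out, the 2 without the late library of mThy16. The causes were not tested.

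With the line as a replicate block, late against early TFCOs still gave 0 calls and 224 genes at an unadjusted p under 0.05, and voom gave 0 and 93. Tissue numbers are shared only by name (r = -0.073 across genes), and with them as a block 28 muscle genes were called between thyroid tissue and lung. Quantile normalization moved the median of all genes from -0.05 to -0.18 (thyroid tissue against TFCOs), from 0.03 to 0.14 (thyroid tissue against lung) and from 0.05 to 0.32 (TFCOs against lung), on the log2 scale. The mean slow share of 3.40% in thyroid tissue was 4.47% without division by length, 3.80% without the heavy chains (chosen after seeing the data), and 1.31% to 5.50% with 1 tissue left out. The planned edgeR and DESeq2 tests were not run, since the table was not entered as counts.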
